A study of Sus scrofa with 9 samples.

Results

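The circular RNAs (circRNAs) described here came from kinase and phosphatase genes. They were chosen by name: every circRNA whose host gene symbol begins with 1 of a fixed set of kinase or phosphatase prefixes (among them MAP2K to MAPK, PRK, PIK3, PIP4K, PIP5K, PI4K, PPP, PTPN, PTPR, CSNK, CAMK, STK, TAOK, MAST, DYRK, HIPK, CLK, WNK, MARK, LATS, JAK, DGK, MTMR and DUSP) was kept, except 1 circRNA of PRKAR1A, which was left out. The set held 64 of the 3071 circular RNAs in the count table and 43 of their 1727 host genes. By the known products of the hosts, 56 of the 64 circRNAs came from 37 genes of kinases, phosphatases or a kinase-like protein. A further 6 came from 5 genes of subunits (MAPKAP1, PPP1R9A, PPP4R1, PPP4R3A and PPP4R4) and 2 came from CAMKMT, which encodes a methyltransferase of calmodulin.

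Total RNA from porcine metaphase II (MII) oocytes, pronuclear (PN) embryos made by in vitro fertilization (IVF) and mature purified sperm was depleted of ribosomal RNA and sequenced, with 3 libraries per group, all labelled as without treatment. By the methods, the oocytes came from slaughterhouse ovaries of postpubertal gilts, were matured in vitro and were stripped of cumulus cells. The sequenced sperm came from adult Large White boars, whereas the methods name Landrace boars as the source of semen for IVF, and both oocytes and embryos were pooled in large numbers. Whether the 3 libraries of a group came from separate pools was not stated, so p-values measure the spread between these libraries, which may be technical.

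A circRNA forms by back-splicing, in which a splice donor joins an acceptor that lies upstream of it, and the resulting ring has no free ends for an exonuclease to attack. Kinases add phosphate groups to proteins or lipids and phosphatases remove them, and both control meiotic arrest, egg activation, sperm motility and the cleavage divisions. A circRNA of such a gene is not itself an enzyme, and its count says nothing of the amount of the linear messenger RNA or of the protein.

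The third sperm library was identical to the first in all 3071 rows, including all 15 kinase and phosphatase circRNAs above 0, and the pair was counted as 1 sample, which left 8 distinct libraries and 2 for sperm. The libraries held 22809 to 24217 circRNA counts in MII oocytes, 23056 to 26200 in PN embryos and 155731 to 167851 in sperm. A count of 0 therefore allowed a share of up to 0.0124% to 0.0132% in an MII oocyte library, 0.0115% to 0.0130% in a PN embryo library and 0.00179% to 0.00193% in a sperm library (3 counts of the total). Against the labels, 5 of 23 sperm and spermatid marker genes hosted a circRNA and their counts summed to 1622 and 4164 in sperm and to 1 to 43 in each other library. TESK2 gave 1166 and 3843 of these sperm counts, and SPAG16 had 43 counts in MII oocyte library 1, 3 in PN embryo library 2 and 0 in sperm. Of 17 oocyte markers, 3 hosted a circRNA, with sums of 49, 0 and 0 in MII oocytes, 78, 0 and 3 in PN embryos and 0 in both sperm libraries, so circRNAs gave little information on oocyte identity. Of 10 cumulus and granulosa markers only CYP19A1 hosted a circRNA, with 19 counts in sperm library 1, and of 7 leukocyte markers none did.

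The study silenced and amplified 1 of these circles, circRNA-1892 of MAP2K4, and its designed oligonucleotides are the only sequences of a kinase circle used here. The pair of siRNAs overlapped, and the capitals mark the 10 bases that both share.
siRNA 1: cacucuucaGAGAGGUAAA
siRNA 2: GAGAGGUAAAcgcaaagca
Joined across the shared bases and written as DNA, they spelled a stretch of 28 bases of the circle.
siRNAs joined: cactcttcaGAGAGGTAAAcgcaaagca
The forward primer of the convergent pair, which amplifies linear as well as circular products, began with 12 bases, in capitals, that are also the last bases of that stretch.
convergent forward: AAACGCAAAGCActgaagttgaa
convergent reverse: agtgcgccgtaaaactgaacaa
The divergent pair points outwards on the linear transcript and yields a product only where the ends have been joined.
divergent forward: ttggagaaattggacgaggagc
divergent reverse: ggtctttcaagtcctctgcagtg

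In MII oocytes 25 of the 64 were detected (at least 1 count in at least 1 library), in PN embryos 23 and in sperm 24, from 21, 17 and 19 host genes. Of all circular RNAs 1476, 1308 and 1004 were detected. At 3 counts or more in a library the numbers were 17, 20 and 24. Of the 64, 49 (76.6%) had counts in 1 library only, against 2194 (71.4%) of all circular RNAs. A further 12 were seen in 2 libraries and 3 in 3 libraries, and none was seen in 4 or more. In each group 3 of the set were above 0 in at least 2 of its libraries, against 310 of 1476, 259 of 1308 and 126 of 1004 of all circular RNAs detected in MII oocytes, PN embryos and sperm. A single circRNA, circRNA-487 of PTPN4, was found in all 3 MII oocyte libraries. None was found in all 3 PN embryo libraries, and 3 (circRNA-1892 of MAP2K4, circRNA-2547 of DYRK1A and circRNA-2657 of PI4K2A) were found in both sperm libraries.

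**Figure D1:**
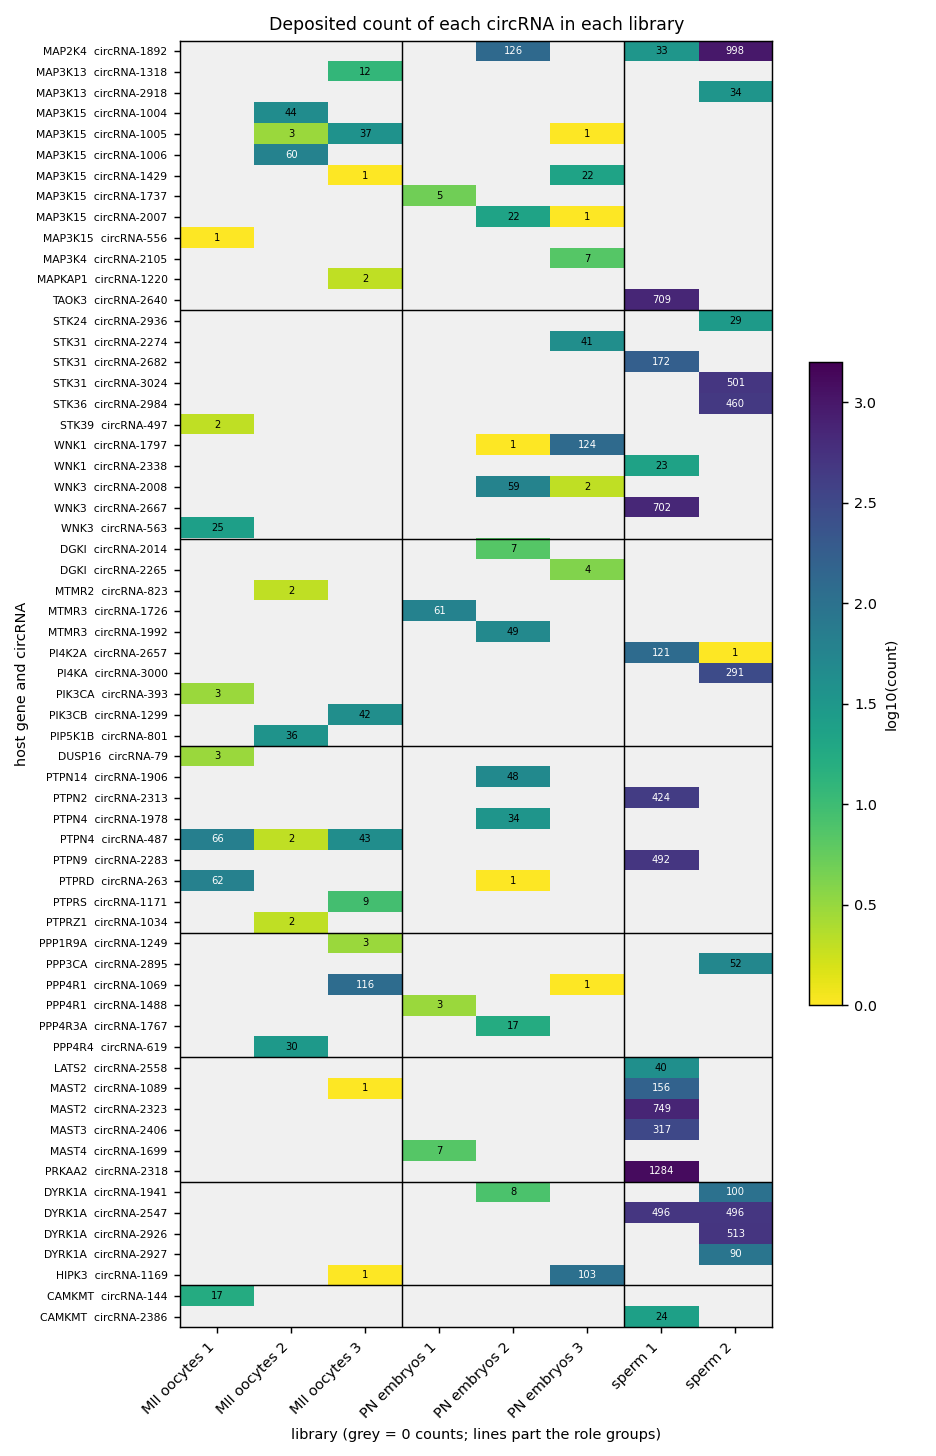
Deposited count of 62 of the 64 circRNAs (rows, with host gene, grouped by role) in the 8 distinct libraries (columns). Cell numbers are counts, colour is log10 of the count and grey is 0. Most rows have a single filled cell, and the sperm columns hold the highest counts, up to 1284.

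Few circles were shared between groups. Of the 64, 56 (87.5%) were seen in 1 group only, against 79.3% of all circular RNAs. 19 (29.7%) were seen in MII oocytes alone, 16 (25%) in PN embryos alone and 21 (32.8%) in sperm alone, against 30.7%, 23.8% and 24.8% of all circular RNAs. MII oocytes and PN embryos shared 5, which was 7.81% of the set, against 12.8% of all circular RNAs (circRNA-1005 and circRNA-1429 of MAP3K15, circRNA-1069 of PPP4R1, circRNA-1169 of HIPK3 and circRNA-263 of PTPRD). PN embryos and sperm shared 2 (circRNA-1892 of MAP2K4 and circRNA-1941 of DYRK1A) and MII oocytes and sperm shared 1 (circRNA-1089 of MAST2), which was 3.125% and 1.56% of the set against 3.35% and 1.89% of all circular RNAs. None was present in all 3 groups, where 82 (2.67%) of all circular RNAs were. These shares describe the libraries and were not tested against each other.

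**Figure D2:**
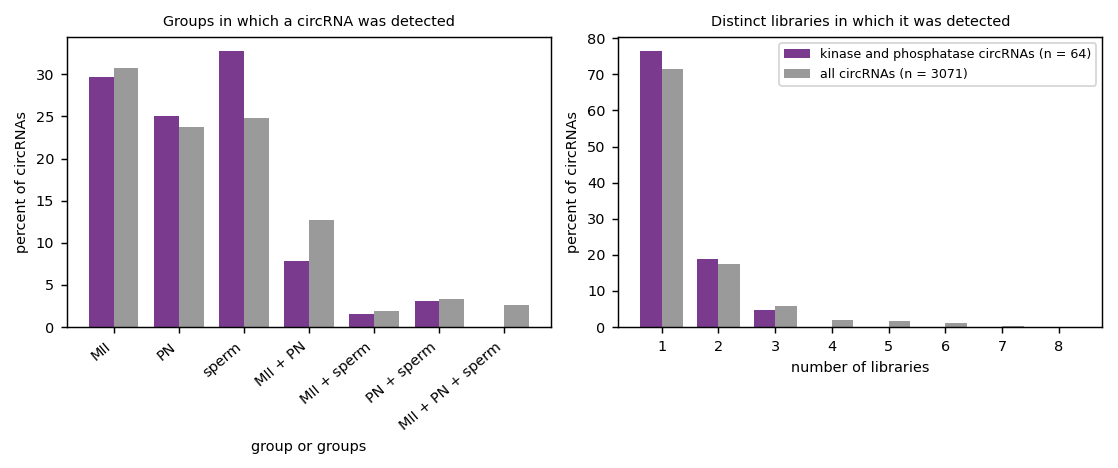
Percent of the 64 kinase and phosphatase circRNAs (purple) and of all 3071 circular RNAs (grey) by the group or groups in which they were detected (left) and by the number of distinct libraries in which they were detected (right). In both sets the bar for 1 library is the tallest, at 76.6% and 71.4%.

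Most high counts were found in 1 library of a group only. Among members with at least 50 counts in a library, 3 of 4 in MII oocytes, 3 of 5 in PN embryos and 16 of 19 (84.2%) in sperm were at 0 in the other libraries of that group. For all circular RNAs these shares were 58.5%, 62.5% and 83.2%. The median count above 0 was 8 in MII oocytes, 7.5 in PN embryos and 291 in sperm for the set, and 14, 10 and 141.5 for all circular RNAs. The sperm libraries also held more circRNA counts in total, and the part of that depth in the higher sperm counts was not tested.

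The share of a library's circRNA counts that fell on the set was highest in sperm. It was 0.743% (95% Wilson interval 0.643% to 0.860%), 0.746% (0.645% to 0.863%) and 1.21% (1.07% to 1.36%) in the 3 MII oocyte libraries. In PN embryos it was 0.343% (0.275% to 0.427%), 1.42% (1.28% to 1.57%) and 1.25% (1.12% to 1.40%), and in sperm 3.69% (3.59% to 3.78%) and 2.12% (2.06% to 2.19%). Both sperm libraries lay above every other library, and the ranges of MII oocytes and PN embryos overlapped. The means were 0.898% ± 0.266 (SD, n = 3) in MII oocytes, 1.004% ± 0.579 (SD, n = 3) in PN embryos and 2.91% ± 1.11 (SD, n = 2) in sperm. The intervals cover counting error only, and the gap between the sperm libraries was wider than both of their intervals.

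By the number of circles the groups stood closer together than by counts. The 3 MII oocyte libraries held 9, 8 and 12 of the circRNAs, the PN embryo libraries 5, 11 and 10, and the sperm libraries 15 and 12. They made up 1.36% to 1.78% of the circular RNAs detected in an MII oocyte library, 0.969% to 2.07% in a PN embryo library and 2.11% to 2.67% in a sperm library. In these bulk samples fewer cells of a type and less RNA per cell cannot be told apart, and a share of circRNA counts does not measure circRNA per cell. With the PRKAR1A circRNA included the sperm shares were 4.93% and 3.55%.

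The leading circle differed between the libraries of each group. The leading circRNA was circRNA-487 of PTPN4 (66 of 180 counts), circRNA-1006 of MAP3K15 (60 of 179) and circRNA-1069 of PPP4R1 (116 of 275) in MII oocytes. In PN embryos it was circRNA-1726 of MTMR3 (61 of 79 counts, or 77.2%), circRNA-1892 of MAP2K4 (126 of 372) and circRNA-1797 of WNK1 (124 of 306). In sperm it was circRNA-2318 of PRKAA2 (1284 of 5742) and circRNA-1892 of MAP2K4 (998 of 3565).

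**Figure D3:**
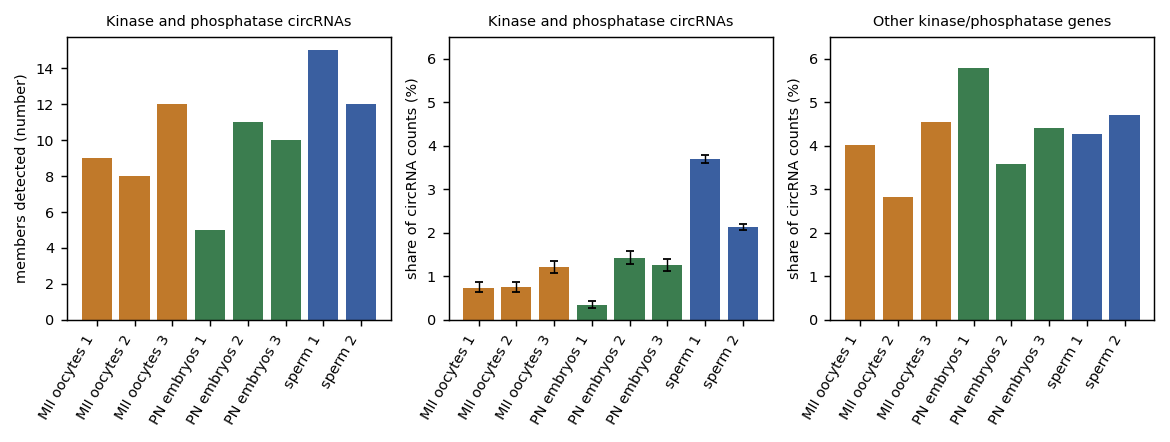
Number of kinase and phosphatase circRNAs detected (left) and their percent of circRNA counts (middle, bars with 95% Wilson intervals) in each distinct library, beside the percent on circRNAs of other kinase and phosphatase genes (right). In the middle panel both sperm libraries, at 3.69% and 2.12%, stand above the other 6, and in the right panel they lie between the lowest and the highest of them.

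Other kinase and phosphatase genes, whose symbols fall outside the prefixes, did not show the same order. Of 284 such symbols, 62 hosted 154 circRNAs, of which 80 were detected in MII oocytes, 74 in PN embryos and 37 in sperm, and 105 were in 1 library only. Their share was 4.02%, 2.83% and 4.54% in MII oocytes, 5.79%, 3.59% and 4.41% in PN embryos and 4.26% and 4.71% in sperm, so that the 3 groups overlapped. In sperm, circRNA-2050 of TESK2 alone gave 1166 of 6637 and 3843 of 7910 of these counts, so the sperm shares lean on that circle.

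Among the kinases of the MAPK cascade, the chain in which MAP3Ks phosphorylate MAP2Ks and these phosphorylate MAPKs, 13 circRNAs of 6 hosts were counted, 7 detected in MII oocytes, 6 in PN embryos and 3 in sperm. MAP2K4 (chr12:56402029-56516217 in the RefSeq annotation of Sscrofa11.1), whose kinase activates the JNK and p38 stress kinases, hosted circRNA-1892 alone. This circRNA had 0 counts in all 3 MII oocyte libraries, 0, 126 and 0 counts in PN embryos and 33 and 998 counts in sperm. It was thus present in both sperm libraries, at shares of 0.0212% and 0.595%, and in 1 of 3 PN embryo libraries, at 0.481%. Against MII oocytes, its share of the pooled counts was at least 75.4-fold higher in sperm and at least 40.4-fold higher in PN embryos. Both bounds are against a floor of 3 counts over the oocyte libraries together and cover counting error only. The sperm bound rested on library 2, and was 5.02-fold without it and 141-fold without library 1, and without PN embryo library 2 no embryo count remained. The PN embryo counts overlapped with those of MII oocytes, since both groups held libraries at 0. By RT-qPCR, a separate measure, the study reported circRNA-1892 as minimal in MII oocytes and significantly higher in PN embryos and sperm. It also reported cleavage and blastocyst rates after knockdown of this circle that were close to those of the control.

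MAP3K15 (chrX:15716898-15867377), which encodes the stress-activated kinase ASK3, hosted 7 circRNAs, the most in the set. Summed over the gene, the counts were 1, 107 and 38 in MII oocytes, 5, 22 and 24 in PN embryos and 0 in both sperm libraries. All 6 libraries of oocytes and embryos were above 0, which held for no other host gene in the set. The circles behind these sums changed from library to library. In MII oocytes, circRNA-1004 had 44 and circRNA-1006 had 60 counts in library 2 alone, circRNA-1005 had 0, 3 and 37 counts, and circRNA-556 had 1 count in library 1. In PN embryos, circRNA-1737 had 5 counts in library 1, circRNA-2007 had 0, 22 and 1, and circRNA-1429 had 22 in library 3. Sharing between the groups rested on single counts, since circRNA-1005 had 1 count in PN embryo library 3, and circRNA-1429 had 1 in MII oocyte library 3.

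Other hosts with these prefixes had low counts outside sperm. MAP3K13 gave circRNA-1318 with 12 counts in MII oocyte library 3, circRNA-2918 with 34 in sperm library 2 and none in PN embryos. MAP3K4 gave circRNA-2105 with 7 counts in PN embryo library 3, and MAPKAP1, which shares the prefix but encodes a subunit of the mTORC2 complex, gave circRNA-1220 with 2 counts in MII oocyte library 3. TAOK3, an upstream MAP3K-type kinase, gave circRNA-2640 with 709 counts in sperm library 1 and 0 in library 2.

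The STK and WNK kinases gave 11 circRNAs of 6 hosts, 2 detected in MII oocytes, 3 in PN embryos and 6 in sperm. STK31 (chr18:48312730-48382358), which encodes a kinase-like Tudor domain protein of male germ cells, hosted 3 circRNAs, each in 1 library. circRNA-2682 had 172 counts in sperm library 1, circRNA-3024 had 501 in sperm library 2, and circRNA-2274 had 41 in PN embryo library 3. The gene was therefore represented in both sperm libraries by different circles, and all 3 MII oocyte libraries were at 0. Of the other STK genes, STK36, a kinase of the Hedgehog pathway, gave circRNA-2984 with 460 counts and STK24 gave circRNA-2936 with 29 counts, both in sperm library 2 alone. STK39, whose kinase acts below the WNKs, gave circRNA-497 with 2 counts in MII oocyte library 1.

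The WNK kinases, which lack the usual catalytic lysine and regulate chloride cotransporters, gave 5 circles. WNK3 (chrX:46923587-47096265) was the only host of the set with circles in all 3 groups, or 2.33% of its hosts against 10.02% of all hosts. Its circRNA-563 had 25 counts in MII oocyte library 1, circRNA-2008 had 0, 59 and 2 counts in PN embryos, and circRNA-2667 had 702 counts in sperm library 1 and 0 in library 2. WNK1 gave circRNA-1797 with 0, 1 and 124 counts in PN embryos and circRNA-2338 with 23 counts in sperm library 1. Each WNK circle was seen in 1 group only, as were 79.3% of all circular RNAs.

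DYRK1A and HIPK3, of related dual-specificity kinase families, gave 5 circRNAs. DYRK1A (chr13:201008506-201159946), a kinase of transcription and splicing factors, hosted 4. circRNA-2547 had 496 counts in each of the 2 distinct sperm libraries and 0 in all 6 others, and its shares of 0.318% and 0.296% were the most even of the 3 circRNAs found in both sperm libraries. Of 126 circular RNAs above 0 in both distinct sperm libraries, 2 had equal counts and this was the only one of them at 50 or more. The pooled share of circRNA-2547 in sperm was at least 72.6-fold higher than in MII oocytes and at least 75.4-fold higher than in PN embryos. Both bounds are against a floor of 3 counts over the other group's libraries together and cover counting error only.

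The other DYRK1A circles had no counts in sperm library 1. circRNA-2926 had 513, circRNA-1941 100 and circRNA-2927 90 counts in sperm library 2, and circRNA-1941 also had 8 counts in PN embryo library 2. Summed over the gene, the sperm libraries had 496 and 1199 counts, against 0, 8 and 0 in PN embryos and 0 in all MII oocyte libraries, so sperm and the other groups did not overlap. HIPK3, which is known in other tissues for an abundant circle, gave circRNA-1169 with 103 counts in PN embryo library 3, 1 count in MII oocyte library 3 and 0 elsewhere.

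**Figure D4:**
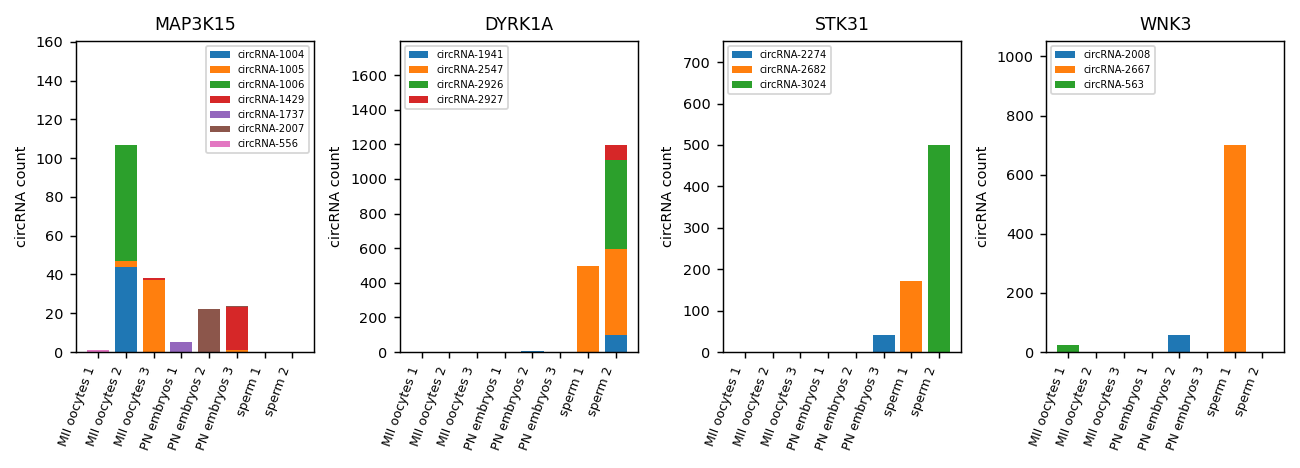
Deposited circRNA counts of the 4 host genes with 3 or more circRNAs, stacked by circRNA, in the 8 distinct libraries (each panel has its own count axis). MAP3K15 is filled in oocytes and embryos and empty in sperm, and DYRK1A and STK31 are highest in sperm. WNK3 is highest in sperm library 1 and empty in sperm library 2, and most bars hold a single circle.

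Kinases of the PRK, LATS and MAST prefixes and their neighbours in the role grouping gave 7 circRNAs of 6 hosts, and almost all their counts lay in 1 library. Their summed counts were 2546 in sperm library 1 and 0 in sperm library 2, against 0, 0 and 1 in MII oocytes and 10, 0 and 0 in PN embryos. PRKAA2 (chr6:155683392-155754283), which encodes a catalytic alpha subunit of the energy sensor AMPK, gave circRNA-2318 with 1284 counts, the highest count in the set. MAST2, a microtubule-associated kinase of spermatids, gave circRNA-2323 with 749 and circRNA-1089 with 156 counts, and circRNA-1089 also had 1 count in MII oocyte library 3. MAST3 gave circRNA-2406 with 317 counts, and LATS2, of the Hippo pathway, gave circRNA-2558 with 40. These 5 were all seen in sperm library 1 and were at 0 in library 2. In PN embryo library 1, MAST4 gave circRNA-1699 with 7 counts.

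Lipid kinases and lipid phosphatases, which set the levels of phosphoinositides and diacylglycerol, gave 10 circRNAs of 8 hosts, 4 detected in MII oocytes, 4 in PN embryos and 2 in sperm. PI4K2A, a phosphatidylinositol 4-kinase, gave circRNA-2657 with 121 and 1 counts in sperm and 0 elsewhere, and PI4KA gave circRNA-3000 with 291 counts in sperm library 2 alone. The single count in sperm library 2 is the whole evidence that circRNA-2657 recurred. MTMR3, a phosphatase of phosphatidylinositol 3-phosphate, gave circRNA-1726 with 61 counts in PN embryo library 1 and circRNA-1992 with 49 in PN embryo library 2. DGKI, a diacylglycerol kinase, gave circRNA-2014 with 7 counts in PN embryo library 2 and circRNA-2265 with 4 in library 3. In MII oocytes, PIK3CB gave circRNA-1299 with 42 counts in library 3, PIP5K1B gave circRNA-801 with 36 and MTMR2 gave circRNA-823 with 2 in library 2, and PIK3CA gave circRNA-393 with 3 in library 1. PIK3CA and PIK3CB encode catalytic subunits of phosphoinositide 3-kinase, and each lipid enzyme circle was seen in 1 group only, beside 79.3% of all circular RNAs.

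The tyrosine and dual-specificity phosphatases gave 9 circRNAs of 8 hosts, 5 detected in MII oocytes, 3 in PN embryos and 2 in sperm. PTPN4 (chr15:31305394-31502978), a cytoplasmic tyrosine phosphatase, hosted circRNA-487, with 66, 2 and 43 counts in MII oocytes and 0 in all PN embryo and sperm libraries. It was the only circRNA of the set above 0 in every library of a group of 3, but its 2 counts in MII oocyte library 2, a share of 0.00833%, lay below the share that a count of 0 allows in a PN embryo library, so that library was not shown to exceed the embryos. In MII oocytes, the pooled share of circRNA-487 was at least 169-fold higher than in sperm and at least 38.4-fold higher than in PN embryos. Both bounds are against a floor of 3 counts over the other group's libraries together and cover counting error only. Without MII oocyte library 1 these bounds were 104-fold and 23.6-fold. A second circle of the gene, circRNA-1978, had 34 counts in PN embryo library 2, so PTPN4 as a gene was present in both groups.

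The other phosphatases of this class appeared in 1 library each, apart from PTPRD. PTPRD, a receptor-type tyrosine phosphatase, gave circRNA-263 with 62 counts in MII oocyte library 1 and 1 in PN embryo library 2. The cytoplasmic PTPN9 and PTPN2 gave circRNA-2283 with 492 and circRNA-2313 with 424 counts in sperm library 1, and PTPN14 gave circRNA-1906 with 48 in PN embryo library 2. The receptor types PTPRS and PTPRZ1 gave circRNA-1171 with 9 counts in MII oocyte library 3 and circRNA-1034 with 2 in library 2. DUSP16, a dual-specificity phosphatase of the JNK kinases, gave circRNA-79 with 3 counts in MII oocyte library 1.

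The PPP serine/threonine phosphatases gave 6 circRNAs of 5 hosts, and 4 of the 6 came from regulatory subunits of protein phosphatase 4. PPP4R1 gave circRNA-1069 with 0, 0 and 116 counts in MII oocytes and 1 count in PN embryo library 3, and circRNA-1488 with 3 counts in PN embryo library 1. PPP4R4 gave circRNA-619 with 30 counts in MII oocyte library 2 and PPP4R3A gave circRNA-1767 with 17 in PN embryo library 2. The catalytic subunit of calcineurin, PPP3CA, was represented by circRNA-2895, with 52 counts in sperm library 2, and PPP1R9A, a targeting subunit of protein phosphatase 1, by circRNA-1249 with 3 counts in MII oocyte library 3. CAMKMT gave circRNA-144 with 17 counts in MII oocyte library 1 and circRNA-2386 with 24 in sperm library 1, and no kinase of the CAMK, CSNK, CLK, MARK or JAK prefixes had a circRNA in the table.

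Of the 43 hosts, 30 (69.8%) had circles in 1 group and 12 (27.9%) in 2 groups, against 60.1% and 29.9% of all hosts. Only MAP3K15, DYRK1A, STK31 and WNK3 had 3 or more circRNAs, 4 of 43 hosts (9.30%) against 285 of 1727 (16.5%). All 43 hosts matched a gene of the RefSeq table of Sscrofa11.1, on 16 chromosomes. Their median gene length was 141742 bases, from 28198 for STK36 to 2180605 for PTPRD, and the median over the 1514 matched hosts of all circular RNAs was 101613. Of 352 protein-coding genes whose symbol fits the prefixes, the 309 without a circRNA had a median length of 45890. Lengths are given as a description, and where the circles lie within their hosts was not analysed here.

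The first comparison asked which circles differ between MII oocytes and PN embryos. In edgeR's quasi-likelihood test with Benjamini-Hochberg adjustment over all circular RNAs tested, a circRNA passed at a log2 fold change of at least 1 in either direction and an adjusted p under 0.05. Of the 64, 10 were above 0 in at least 2 of the 6 libraries and were tested, and 0 passed, as did 0 of 675 in all (0%). The lowest adjusted p in all was 2.87e-14 in edgeR's test, but with a log2 fold change under 1 in size. None of the 10 had an unadjusted p under 0.05, against 16 of the 675, and their adjusted p ran from 0.386 to 0.531. DESeq2 gave an adjusted p for 7 of the 10 and passed 0 of them, with 1 at an unadjusted p under 0.05. It gave one for 600 of the 675 and passed 0 of these (0%), with 30 of all at an unadjusted p under 0.05. Among those without one were circRNA-1797 of WNK1, circRNA-1069 of PPP4R1 and circRNA-1169 of HIPK3.

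Fitted log2 fold changes (PN embryos over MII oocytes) of the 10 were positive for 5 and negative for 5, and all had wide standard errors. At the extremes stood circRNA-1797 of WNK1, at 8.36 (SE 4.27), and circRNA-487 of PTPN4, at -8.24 (SE 4.34), both with an adjusted p of 0.386 in edgeR's test. Where a group is at 0, the fitted value depends on the prior count and is no bound. circRNA-1892 was not tested here, since it was above 0 in only 1 of the 6 libraries.

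The second comparison set sperm against MII oocytes, and 0 of 7 kinase and phosphatase circRNAs passed in edgeR's test, against 19 of 486 in all (3.91%), 8 higher and 11 lower in sperm. At an unadjusted p under 0.05 there were 3 of the 7, against 169 of the 486, all 3 with an adjusted p of 0.105. circRNA-1892 of MAP2K4 had a log2 fold change of 10.93 (SE 3.52), circRNA-2547 of DYRK1A of 10.92 (SE 3.17) and circRNA-487 of PTPN4 of -9.95 (SE 3.46). DESeq2 on the same counts passed 4 of the 7, against 265 of 486 in all (54.5%). It placed circRNA-1892 and circRNA-2547 higher in sperm, with adjusted p of 0.00586 and 0.00365, and circRNA-487 and circRNA-1005 of MAP3K15 lower, with adjusted p of 0.00134 and 0.0153. All 4 were at 0 in every library of the group where they were lower, and met the filter only through the other group. The filter thus fixed their direction, and no conclusion is drawn from these passes. Over the alternatives that kept these circRNAs, the adjusted p ran from 0.00586 to 0.722 for circRNA-1892, from 0.00365 to 0.722 for circRNA-2547 and from 0.00134 to 0.722 for circRNA-487. For circRNA-1005 the range was 0.0153 to 0.448.

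circRNA-487 also passed in edgeR's test, with an adjusted p of 0.0294, when only circular RNAs above 0 in at least 3 libraries were tested, which left it the sole tested member. In that setting 70 of 123 in all passed (56.9%), so a pass there was common. With 0 counts in both sperm libraries, circRNA-487 met that filter only through the MII oocyte libraries, where it was high. The filter thus fixed its direction, and no conclusion is drawn from this pass. Other members tested against MII oocytes were circRNA-2657 of PI4K2A at 7.95 (SE 4.02), circRNA-1089 of MAST2 at 4.97 (SE 3.43) and circRNA-1005 of MAP3K15 at -8.53 (SE 4.05) on the log2 scale. None of these 3 had an unadjusted p under 0.05 in edgeR's test. Most of the sperm circles with high counts, such as circRNA-2318 of PRKAA2, were in 1 distinct sperm library and fell below the filter. Without a filter all 64 circRNAs were tested in edgeR and 0 passed, with 3 at an unadjusted p under 0.05, beside 19 of 3071 passing (0.619%) and 58 at an unadjusted p under 0.05 in all.

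Against PN embryos, sperm likewise gave 0 of 7 passing in edgeR's test, beside 7 of 453 in all (1.55%), all 7 lower in sperm. Only circRNA-2547 of DYRK1A had an unadjusted p under 0.05, as did 117 of the 453, with a log2 fold change of 10.93 (SE 2.82) and an adjusted p of 0.128. circRNA-1892 of MAP2K4, present in both groups, had a log2 fold change of 0.94 (SE 2.92, adjusted p = 0.786), which was smaller than its standard error. That value rested on single libraries: it was -2.91 without sperm library 2 and 11.16 without PN embryo library 2, and neither passed. Without sperm library 2 the lone sperm library was assumed to vary like the embryo libraries. DESeq2 passed 4 of the 7, circRNA-2547 higher and circRNA-1797 of WNK1, circRNA-2008 of WNK3 and circRNA-2007 of MAP3K15 lower in sperm, against 253 of 453 in all (55.8%). These 4 were likewise at 0 in the group where they were lower and met the filter only through the other group. Their direction was thus fixed by the filter, and no conclusion is drawn from these passes.

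**Figure D5:**
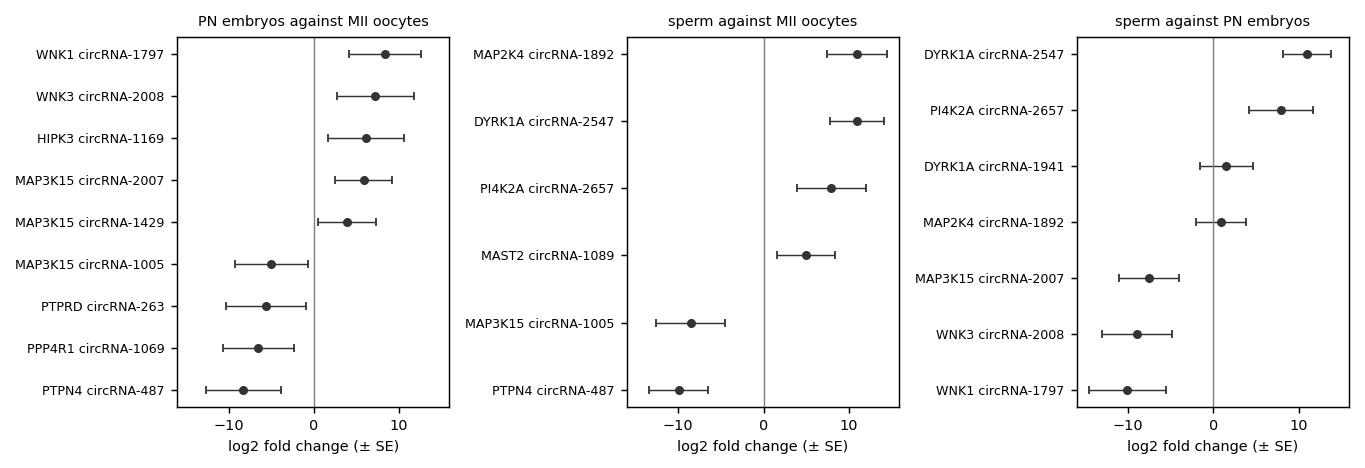
Fitted log2 fold changes (points) with standard errors (bars) from edgeR's quasi-likelihood test for kinase and phosphatase circRNAs tested in each comparison, with 9, 6 and 7 shown of 10, 7 and 7. None passed the threshold, and values against a group at 0 depend on the prior count.

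Since several hosts gave different circles in different libraries, the counts were also summed over each host gene and fitted again, a choice made after seeing the data. For PN embryos against MII oocytes, 0 of 10 member hosts passed in edgeR's test, with 1 at an unadjusted p under 0.05 (WNK1), beside 0 of 643 hosts in all (0%) and 28 at an unadjusted p under 0.05. For sperm against MII oocytes, 0 of 11 passed, beside 17 of 577 (2.95%). At an unadjusted p under 0.05 were 191 of the 577 and 5 of the 11, DYRK1A (log2 fold change 11.67, SE 2.96), MAP2K4 (10.93, SE 3.78) and STK31 (10.34, SE 3.75) with higher sums in sperm and MAP3K15 (-10.34, SE 3.71) and PTPN4 (-9.95, SE 3.70) with lower ones, each at an adjusted p of 0.124. For sperm against PN embryos, 0 of 10 passed, beside 8 of 544 (1.47%), and MAP3K15 (-8.76, SE 3.29) and DGKI (-6.53, SE 2.72) had an unadjusted p under 0.05, as did 178 of the 544, and an adjusted p of 0.134. Each host named here was at 0 in every library of the group where its sum was lower, and met the filter only through the other group. The filter thus fixed the direction of these hosts, and their fitted values depend on the prior count. No conclusion is drawn from these unadjusted p-values of edgeR's test. DESeq2 was not run on the sums.

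Of the other kinase and phosphatase genes, 0 of 40 circRNAs tested passed for PN embryos against MII oocytes, 1 of 27 for sperm against MII oocytes and 0 of 23 for sperm against PN embryos in edgeR's test. At an unadjusted p under 0.05 there were 0, 12 and 4 of them, against 16 of 675, 169 of 486 and 117 of 453 in all. DESeq2 passed 0, 15 and 14, beside 0%, 54.5% and 55.8% in all. The 1 that passed was circRNA-2050 of TESK2, a testis kinase that is also among the sperm markers, with a log2 fold change of 13.23 and an adjusted p of 0.0173. It was at 0 in all MII oocyte libraries and met the filter only through sperm. No circRNA of these genes passed in that comparison with TMM, with the replicate block or without any 1 of the oocyte libraries. Without a filter, with all 3 groups in 1 fit or with identical sperm columns as 2 samples, 1 passed, higher in sperm. With the filter of 3 libraries 3 passed, all lower in sperm. The 2 comparisons with MII oocytes share the oocyte libraries, and those with sperm share the sperm libraries, so their values are not independent of each other.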

How the data were processed

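The circRNA table holds raw counts that the authors deposited, 1 row per circular RNA with its host gene. The submitters' processing notes name cutadapt 1.9, TopHat2 2.0.4, HISAT2 2.0.4, StringTie 1.3.4d, edgeR and the build Sscrofa11.1, with no roles, and the circRNA caller is not given in the sources used here. The lncRNA and mRNA tables were not used here. The members, role groups and lists were chosen with earlier results of these data known. Columns were mapped to the 9 samples by library name, and 0 columns were left unmapped. Identical sperm columns 1 and 3 were used once.

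Shares are counts over the library's total circRNA count. Reads carry no molecular identifiers, so intervals and floors (3 counts) cover counting error only. Counts were fitted per comparison with edgeR 4.0.16 (R 4.3.3, quasi-likelihood test, library size = total circRNA count, above 0 in at least 2 libraries). DESeq2 1.42.0 with its own size factors was an alternative, beside TMM, other filters, all 3 groups in 1 fit, a replicate block and leaving out each library. Named were circRNA-1892, members past the threshold, the 8 with the highest mean share per group, those in all libraries of a group or in PN embryos and sperm but not MII oocytes, hosts with 3 or more circRNAs, STK31 and HIPK3. The others were given by count and library, except 2 circRNAs that are counted in the totals but not reported here. Host positions came from RefSeq, and siRNA and primer sequences from the study's supplement.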

Additional observations from a re-analysis of the deposited data

How the results depend on the processing

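No kinase or phosphatase circRNA passed in edgeR's test under TMM, no filter, all 3 groups in 1 fit, identical sperm columns as 2 samples, the replicate block or leaving out any 1 library, and 0 passed for PN embryos against MII oocytes under every alternative. For sperm against MII oocytes, DESeq2 passed 4 of 7 and the filter of 3 libraries 1 of 1, beside 54.5% and 56.9% in all. For sperm against PN embryos, DESeq2 passed 4 of 7, beside 55.8% in all. Each circRNA that passed was at 0 in the group where it was lower and met the filter only through the other group. The cause of the added passes was not tested. Over the whole table, sperm against MII oocytes gave 10 (0 higher, 10 lower) with TMM, 265 (73 higher, 192 lower) with DESeq2, and 70 with the filter of 3 libraries, beside 19. With the replicate block, which also leaves out library 3, it gave 0, and leaving out MII oocyte library 3 alone gave 13. Without 1 library it gave 0 to 21, and 0 without MII oocyte library 1 or 2. Sperm against PN embryos gave 17 (6 higher, 11 lower) with TMM, 253 (48 higher, 205 lower) with DESeq2, 11 without a filter, 44 with the filter of 3 libraries, 21 with all 3 groups in 1 fit, and 17 with identical columns as 2 samples, beside 7. With the replicate block it gave 0, as did leaving out PN embryo library 3 alone. Without 1 library it gave 0 (any PN embryo library) to 19 (sperm library 1), and where 1 sperm library was left it was assumed to vary like the other group. PN embryos against MII oocytes gave 0 to 1, the 1 without PN embryo library 1. The median log2 fold change, sperm over MII oocytes, was -6.07 over the 486 circular RNAs tested, -8.21 with TMM and -6.66 with DESeq2. It was 0 without a filter, -4.04 with the filter of 3 libraries and -3.98 with all 3 groups in 1 fit. With the replicate block it was -1.17, and with identical columns as 2 samples 5.72. Without 1 MII oocyte library it was -0.34 to 0.0068, and without 1 sperm library -7.86 to -7.75. PN embryos over MII oocytes gave -0.17 over the 675 tested, -0.24 with TMM and 0.21 with DESeq2, and -1.19 without PN embryo library 1.

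Same-numbered MII oocyte and PN embryo libraries correlated at -0.00328, 0.1002 and 0.170 over 877 circular RNAs, so not every pair was above 0.1 and the numbers were not taken as pairs. Oocyte libraries 2 and 3 correlated best with their own number and oocyte library 1 with embryo library 2 (0.0211), and sperm was not part of this check. With the replicate block, fitted on libraries 1 and 2 only in the sperm comparisons, 0 circular RNAs passed in each of the 3 comparisons, with 3, 13 and 3 at an unadjusted p under 0.05.

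Detection counts depended on single libraries. Asking for 2 libraries left 3 in each group, and leaving out 1 library gave 16 (without library 3) to 19 in MII oocytes, 15 (without library 2) to 18 in PN embryos and 12 to 15 in sperm, beside 25, 23 and 24. The mean sperm share was 4.24% with the PRKAR1A circRNA, beside 2.91%. The log2 fold change of circRNA-1892, sperm over PN embryos, turned to -2.91 without sperm library 2. Of the other fold changes of single circRNAs under the alternatives, 209 kept their direction and side of the threshold, 3 kept their direction with no adjusted p from DESeq2, and 9 newly passed. Many of these circRNAs were at 0 throughout 1 group of the comparison, so no alternative could turn their direction. Alternatives whose filter dropped a circRNA gave no value for it and are not counted. The kept directions are therefore no measure of stability. Of the values above 0, 10 of 29 member values in MII oocytes and 6 of 26 in PN embryos were 1 or 2 counts, against 1 of 27 in sperm.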
